A study of Solanum lycopersicum with 12 samples.

Results

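Polyphenol oxidases and late wound enzymes of tomato were followed at 10 loci: 5 polyphenol oxidase loci that sit together on chromosome 8, 3 leucine aminopeptidase loci on chromosome 12, threonine deaminase 2 (TD2) on chromosome 9 and arginase 2 (ARG2) on chromosome 1. The loci were chosen by identifier, and all 10 were found, once each, among the 34688 rows of the deposited table. Shoots and roots of tomato (Solanum lycopersicum, cultivar Moneymaker) were collected on day 15 after transplantation from plants whose leaves had received piperonylic acid (PA, 300 µM with 0.1% Tween 20) or a mock solution on days 7 and 14. With 2 treatments and 2 organs this gave 4 groups of 3 libraries (PA shoot, mock shoot, PA root, mock root), and each library came from 4 pooled plants. The libraries hold reads from the 3′ ends of transcripts and 4214169 to 7386030 reads each, and values are the authors' normalized counts.

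Polyphenol oxidases are plastid enzymes that turn phenolic compounds into reactive quinones once the cell is broken open, the reaction that browns cut or chewed leaves. In tomato, TD2, ARG2 and the acidic leucine aminopeptidases belong to the late leaf response to wounding and jasmonate. TD2 and ARG2 break down threonine and arginine in the gut of a feeding caterpillar, and leucine aminopeptidase trims amino acids from the ends of peptides. PA inhibits cinnamate 4-hydroxylase, an early enzyme of the phenylpropanoid pathway, which makes many plant phenolics. The deposited table does not pair identifiers with names, so the enzyme names follow the list by which the loci were chosen. A RefSeq gene table of assembly SLM_r2.1 lists TD2 on chromosome 9, ARG2 on chromosome 1, LAPA1 and LAPA2 on chromosome 12 and 3 genes with the synonym PPO on chromosome 8, which are the chromosomes that the identifiers carry, but it pairs none of them with these identifiers. Members of each cluster resemble one another, and no source used here says how reads shared by similar copies were counted, so a level of a single polyphenol oxidase or aminopeptidase locus may hold reads of a neighbour.

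The polyphenol oxidase cluster was divided between shoot and root. Solyc08g074620 and Solyc08g074630 were the shoot loci, and Solyc08g074680, Solyc08g074682 and Solyc08g074683 the root loci. Whole organs were sequenced, and fewer cells of a type and less RNA per cell cannot be told apart. Summed over the 5 loci, mock shoot had 2108 ± 115 normalized counts and PA shoot 2609 ± 180 (SD, n = 3 in every group). The root sums were of the same size, 2539 ± 388 for mock and 2422 ± 259 for PA. Solyc08g074620 held 93.7 ± 2.8% of that sum in mock shoot and 0.222 ± 0.066% in mock root, where Solyc08g074680 held 44.5 ± 2.8%, Solyc08g074682 32.8 ± 2.5% and Solyc08g074683 21.9 ± 2.1%. Reads come from transcript ends, so no correction for transcript length was applied to these shares.

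**Figure D1:**
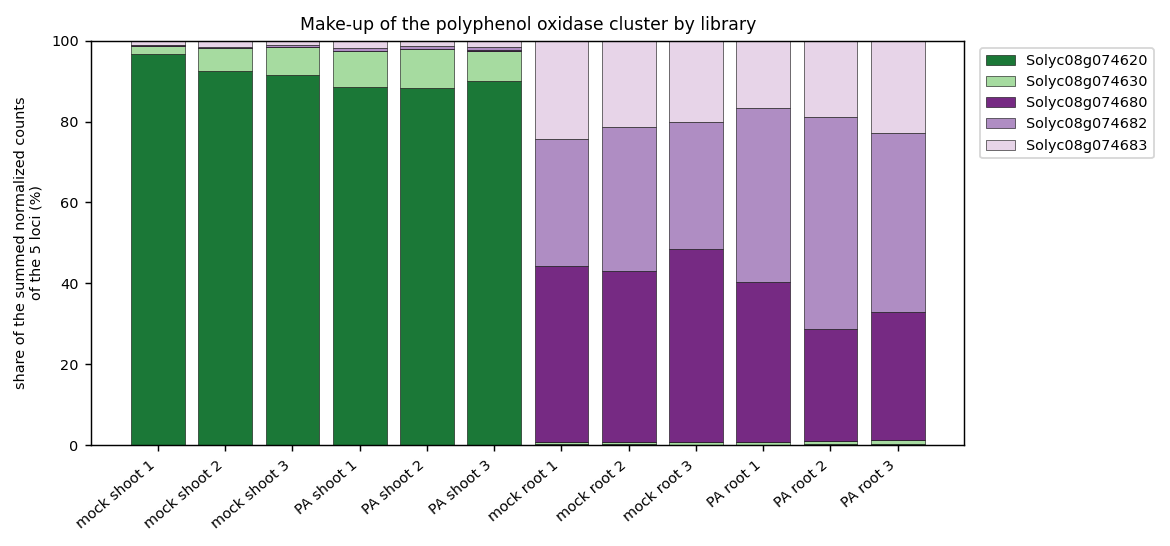
Bars show, for each of the 12 libraries (x axis), the percent of the summed normalized counts of the 5 polyphenol oxidase loci (y axis, from 0 to 100%) that each locus takes. The shoot bars are filled by Solyc08g074620 (88.3 to 96.8%), and the root bars are divided among Solyc08g074680, Solyc08g074682 and Solyc08g074683.

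Without PA, all 10 loci differed between root and shoot, 6 higher in shoot and 4 higher in root. Such a difference was common in the whole table, where 66.1% of 15317 tested loci were called (limma adjusted p below 0.05), 33.6% upward in root and 32.5% downward. No mock shoot library lay among the mock root libraries at any of the 10, a separation that 36.8% of all tested loci had upward in root and 35.1% downward. Some members reached the tested mean of at least 10 only through their higher organ, which favours a call and a separation. They were Solyc08g074620 and Solyc12g010030 (5.47 and 3.76 in mock root) and Solyc08g074680 and Solyc08g074682 (0.38 and 6.20 in mock shoot). With no filter on low values limma called all 10, and 51.9% of 22826 loci. In mock shoot Solyc08g074620 measured 1918, 2041 and 1959 normalized counts (replicates 1, 2 and 3) and in mock root 6.12, 5.92 and 4.36. Its shoot and root libraries lay far apart, with a log2 difference of -8.27 for root minus shoot (standard error 0.15, limma adjusted p = 3.9e-10). Its level in mock root was 0.277% of that in mock shoot. Shoot markers were 213 loci at least 64-fold higher in mock shoot and with a mean of at least 500 there. With the 2 members among them left out, they stood at a median of 0.404%. The root level of Solyc08g074620 was thus below that median.

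Solyc08g074680 had the opposite pattern. It measured 1017, 971 and 1421 normalized counts in mock root, while the 3 mock shoot libraries together held 1 read against 3941 reads in mock root. The ratio of mock root to mock shoot was 2950, with an exact 95% counting interval of 529 to 116543 that covers counting error only, and 3 reads against 2840 in the PA libraries gave a ratio of 720 (246 to 3491). Solyc08g074682 was 6.91 higher in mock root on the log2 scale (standard error 0.27, limma adjusted p = 1.98e-08), and Solyc08g074683 was 4.40 higher (standard error 0.19, limma adjusted p = 3.89e-08). Their mock shoot levels were 0.748% and 4.63% of their mock root levels. Of 98 root markers defined in the same way, 2 were members and were left out. The others stood at a median of 0.192%, and their highest value of 1.55% is set by the 64-fold limit. Solyc08g074630 was the less specific of the shoot loci, with 104 ± 57.4 normalized counts in mock shoot and 15.0 ± 4.80 in mock root (log2 difference -2.55, standard error 0.47, limma adjusted p = 0.00097).

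**Figure D2:**
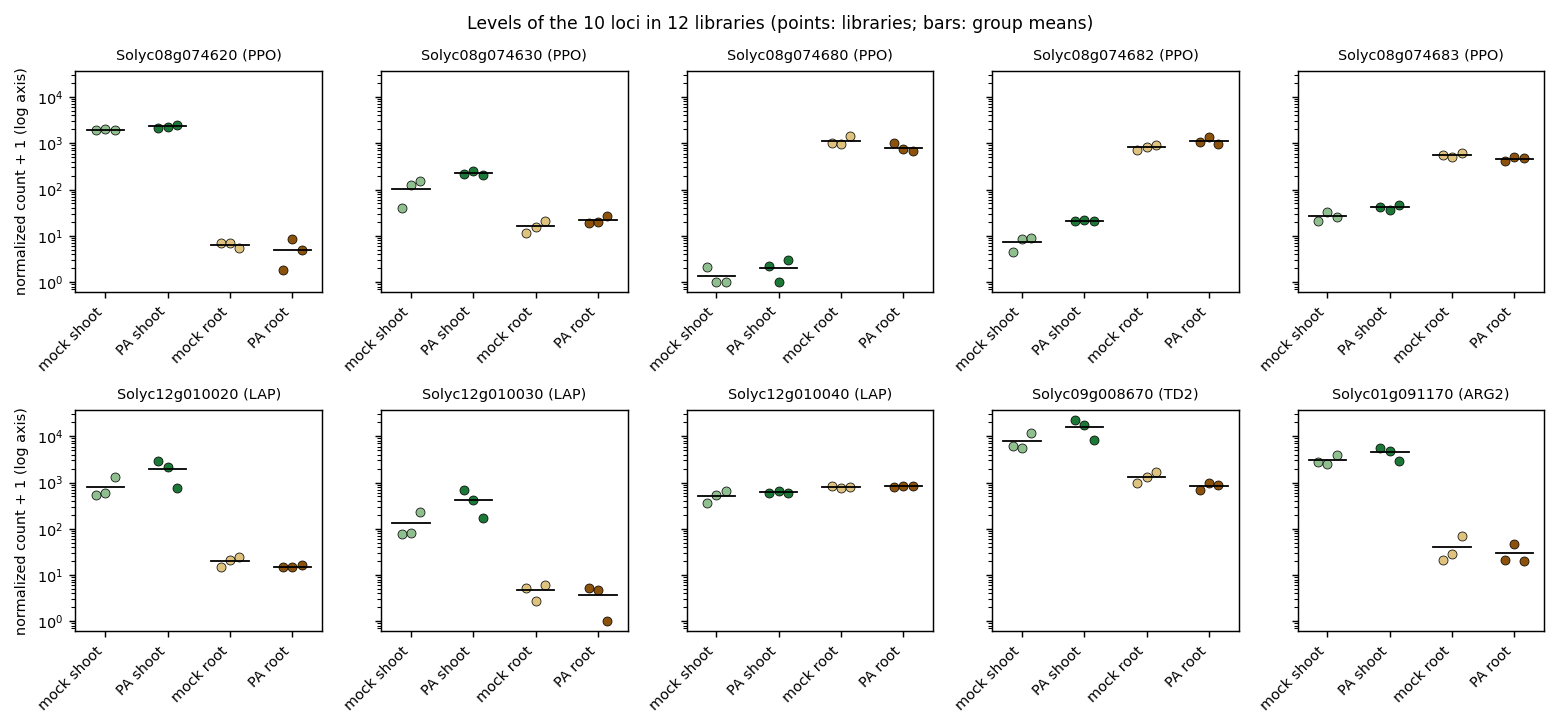
Each panel is 1 locus, with the 4 groups on the x axis and the normalized count plus 1 on a log y axis. Points are libraries and bars are arithmetic group means of 3. The 5 polyphenol oxidase loci fall into shoot and root types, TD2, ARG2, Solyc12g010020 and Solyc12g010030 are higher in shoot, and Solyc12g010040 has group means between 513 and 830.

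The late wound enzymes were higher in shoot, with 1 exception among the aminopeptidases. TD2 was among the more abundant transcripts of the shoot, ranked 91 of 34688 loci in mock shoot and 27 in PA shoot by mean level. In mock root it still ranked 731, and its level there was 16.6% of that in mock shoot. It measured 6326, 5519 and 12035 normalized counts in mock shoot and 993, 1300 and 1678 in mock root, so its groups did not overlap, and the log2 difference was -2.53 for root minus shoot (standard error 0.28, limma adjusted p = 3.3e-05). ARG2 measured 2847, 2493 and 4008 in mock shoot and was low in mock root, at 20.1, 27.9 and 68.8 (log2 difference -6.45, standard error 0.38, limma adjusted p = 3.27e-07). The aminopeptidase loci Solyc12g010020 and Solyc12g010030 were also shoot loci, with log2 differences of -5.23 and -4.67 for root minus shoot (standard errors 0.33 and 0.48, limma adjusted p = 5.41e-07 and 1.81e-05).

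The third aminopeptidase locus, Solyc12g010040, behaved differently. It measured 360, 533 and 647 normalized counts in mock shoot and 825, 765 and 792 in mock root, a modest root excess of 0.67 on the log2 scale (standard error 0.18, limma adjusted p = 0.00947). Solyc12g010040 made up 97.2 ± 0.66% of the summed aminopeptidase counts in mock root and 37.0 ± 7.4% in mock shoot, where Solyc12g010020 supplied 54.6 ± 5.4% and Solyc12g010030 8.42 ± 2.05%. The same 10 directions were found between PA root and PA shoot, a comparison of other libraries that was chosen after the data had been seen, with 10 of 10 called by limma against 68.9% of 15352 tested loci. There too Solyc08g074620, Solyc12g010030 (4.01 and 2.65 in PA root) and Solyc08g074680 (1.06 in PA shoot) reached the tested mean only through their higher organ.

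The next question was whether the PA spray changed these enzymes in shoots, the organ that was sprayed. No member passed at an adjusted p below 0.05. Of the 9 loci tested (mean of at least 10 normalized counts, which left out Solyc08g074680), limma called 0, and so did edgeR and DESeq2, which gave no adjusted p for Solyc08g074682 and Solyc08g074683. Over all 14505 tested loci limma called 1.58%, made up of 0.924% higher with PA and 0.655% lower. All 9 estimates were positive, with a median log2 difference of 1.00 against -0.02 over all tested loci, of which 47.0% had a positive estimate. Of the 9, Solyc08g074682 reached the minimum of 10 only through PA shoot, with means of 6.20 in mock shoot and 20.3 in PA shoot. That favours a positive estimate for it. At an unadjusted p below 0.05, 8 of the 9 were higher with limma, 8 with edgeR and 6 with DESeq2. Over all tested loci that level was passed by 14.1% with limma (6.65% higher and 7.5% lower), 14.1% with edgeR and 9.89% with DESeq2.

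**Figure D3:**
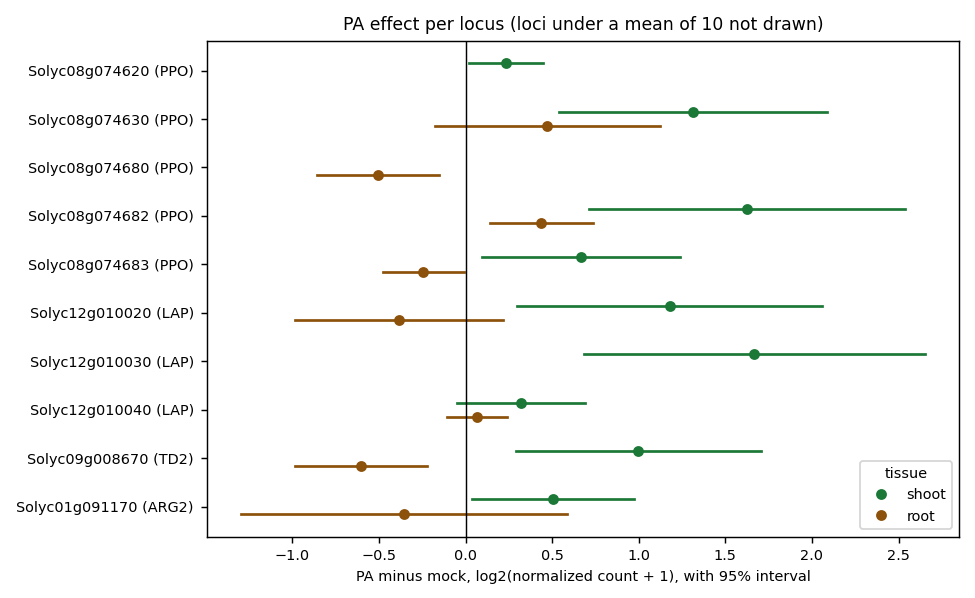
Points give the difference between PA and mock in log2(normalized count + 1) (x axis) for each locus (y axis) in shoot and in root, and lines are 95% limma intervals, not adjusted for the number of loci. Shoot points lie to the right of 0 for all 9 loci drawn, from 0.23 to 1.67, and root points lie on both sides, from -0.60 to 0.47.

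Among the polyphenol oxidases, the 4 loci tested in shoot each had every PA library above every mock library, a separation seen upward at 8.15% of tested loci and downward at 11.6%. For Solyc08g074682, tested only through its PA libraries, the minimum mean favours such a separation. Solyc08g074630 measured 38.9, 123 and 148 normalized counts in mock shoot and 218, 247 and 209 in PA shoot. The PA libraries lay close together, and mock shoot replicate 1 was far below the other mock libraries. The log2 difference was 1.31 (standard error 0.36, 95% interval 0.54 to 2.09, limma adjusted p = 0.0971). Its adjusted p lay between 0.00933 and 0.358 in the alternatives. The lowest came without mock shoot replicate 1, where the log2 difference was 0.72, and without mock shoot replicate 3 the adjusted p was 0.0184. Of all tested loci, limma called 2.63% without mock shoot replicate 1 and 1.97% without mock shoot replicate 3.

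Solyc08g074682, a root locus, was at 3.44, 7.37 and 7.81 normalized counts in mock shoot and 19.6, 20.8 and 20.4 in PA shoot. These values rest on 16 and 55 reads in all, and the log2 difference was 1.63 (standard error 0.42, 95% interval 0.72 to 2.54, limma adjusted p = 0.0813). With all 12 libraries in 1 limma fit, which shares the spread with roots, it passed (adjusted p = 0.00248, the lowest of a range up to 0.323). That fit called 1.28% of all tested loci. Solyc08g074683, the other root locus above the minimum, went from 19.5, 32.2 and 25.0 to 41.7, 34.6 and 45.6 (log2 difference 0.67, standard error 0.27, limma adjusted p = 0.272). The root markers, members left out, also took a larger share of reads in PA shoot, 0.0164 to 0.0230%, than in mock shoot, 0.0133 to 0.0158%. Shoot markers, members left out, took 20.1 to 21.5% in mock shoot and 18.7 to 18.9% in PA shoot. The part of both in the shoot differences was not tested. The main shoot locus, Solyc08g074620, had the smallest estimate of the 9, with 1918, 2041 and 1959 in mock shoot and 2167, 2276 and 2526 in PA shoot (log2 difference 0.23, standard error 0.10, 95% interval 0.02 to 0.45, limma adjusted p = 0.305). In the make-up of the cluster in shoot, Solyc08g074630 accounted for 1.97 to 6.93% of the summed counts in the mock libraries and 7.44 to 9.57% in the PA libraries.

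The late wound enzymes differed widely between replicates in shoot. TD2 measured 22528, 17698 and 8363 normalized counts in PA shoot against 6326, 5519 and 12035 in mock shoot. PA shoot replicates 1 and 2 were above all mock libraries, but PA shoot replicate 3 lay below mock shoot replicate 3, so the groups overlapped. The log2 difference of 1.00 had a standard error of 0.33 and a 95% interval of 0.29 to 1.70 (limma adjusted p = 0.176). The same libraries overlapped at Solyc12g010020, with 529, 592 and 1315 in mock shoot and 2929, 2121 and 769 in PA shoot (log2 difference 1.18, standard error 0.41, limma adjusted p = 0.199).

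Solyc12g010030, the less abundant of these aminopeptidases, measured 76.7, 80.1 and 234 in mock shoot and 687, 411 and 167 in PA shoot. Here too PA replicate 3 was below mock replicate 3, and the log2 difference was 1.67 (standard error 0.46, 95% interval 0.68 to 2.65, limma adjusted p = 0.0989). ARG2 measured 2847, 2493 and 4008 in mock shoot and 5656, 4857 and 2955 in PA shoot (log2 difference 0.50, standard error 0.22, 95% interval 0.04 to 0.97, limma adjusted p = 0.31). Solyc12g010040 stood at 513 ± 145 in mock shoot and 623 ± 37.9 in PA shoot, a log2 difference of 0.32 with a 95% interval of -0.05 to 0.69 (limma adjusted p = 0.431). The spread of these loci was high for this tissue: the residual SD was larger than that of 99.0% of tested loci for Solyc12g010030, 98.6% for Solyc12g010020, 97.1% for Solyc08g074630, 96.3% for TD2 and 86.5% for ARG2, and larger than that of 7.58% for Solyc08g074620.

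Single libraries decided whether the late wound enzymes were called. Without PA shoot replicate 3, where limma called 1.23% of all tested loci, it called TD2, Solyc12g010020 and Solyc12g010030 higher with PA (adjusted p = 0.0324, 0.0209 and 0.0215, log2 differences 1.41, 1.74 and 2.22). Without mock shoot replicate 3, where it called 1.97% of all tested loci, it called the same 3 (limma adjusted p = 0.032, 0.0417 and 0.0117) and Solyc08g074630. Over all alternatives the adjusted p of TD2 ran from 0.032 to 0.491, that of Solyc12g010020 from 0.0209 to 0.526 and that of Solyc12g010030 from 0.0117 to 0.351. ARG2 was called in no alternative (0.0749 to 0.637). With no filter on low values limma called Solyc12g010030 (adjusted p = 0.0481) and 1.35% of all tested loci.

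TD2, ARG2, Solyc12g010020 and Solyc12g010030 varied together from library to library, inside groups as well as between them. All 4 had the same 4 highest shoot libraries in the same order, which was PA replicate 1, PA replicate 2, mock replicate 3 and PA replicate 3, and mock replicates 1 and 2 were lowest. From the lowest to the highest shoot library, the level spanned 8.95-fold at Solyc12g010030, 5.54-fold at Solyc12g010020, 4.08-fold at TD2 and 2.27-fold at ARG2. Pearson correlations of log2(value + 1) over the 6 shoot libraries were 0.967 to 0.992 among the 6 pairs of these 4 loci, and Spearman 0.943 to 1.00. Exact permutation p-values for Pearson were 0.00139 to 0.00417, or 0.0167 to 0.0214 after Benjamini-Hochberg adjustment over the 36 pairs of 9 members, and 0.05 to 0.075 for Spearman after the same adjustment. Without the 2 libraries farthest from the median of 1 locus of each pair, the Pearson values were 0.919 to 0.994. With each group's mean subtracted they were 0.971 to 0.996. No p-value had been planned for these correlations. The permutations exchange mock and PA libraries freely, so a shift that loci share between the groups counts toward a low p-value. These 4 loci were grouped with the data known, and the third aminopeptidase, Solyc12g010040, had Pearson values of only 0.571 to 0.702 with them.

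**Figure D4:**
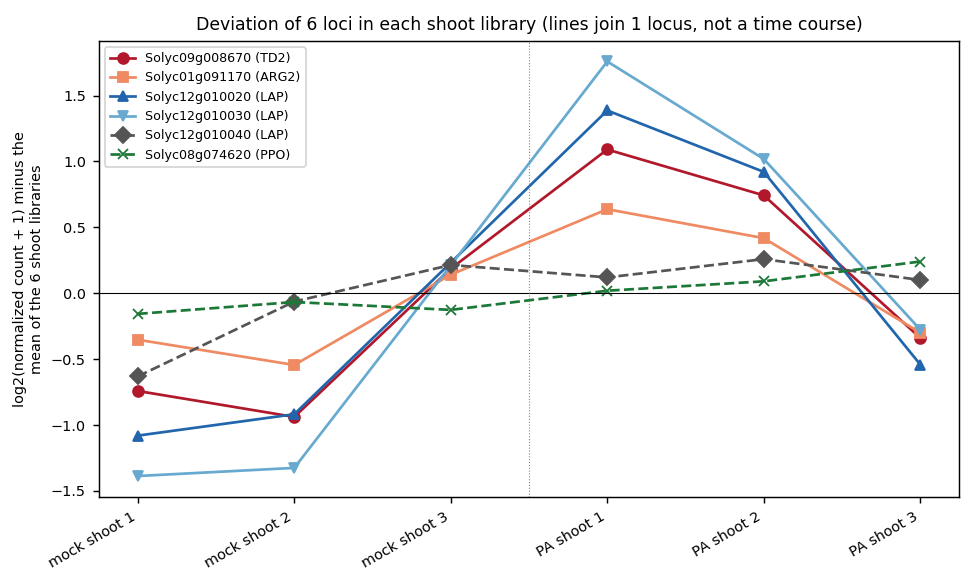
Lines give, for 6 loci, log2(normalized count + 1) in each shoot library (x axis) minus the mean of that locus over the 6 shoot libraries (y axis). TD2, ARG2, Solyc12g010020 and Solyc12g010030 share the order PA replicate 1, PA replicate 2, mock replicate 3, PA replicate 3 at the top, while Solyc12g010040 and Solyc08g074620 do not.

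In the whole shoot table, few loci were more alike to TD2 than these partners. Among 10383 other loci with a shoot mean of at least 50, ARG2 ranked 5, Solyc12g010020 ranked 8 and Solyc12g010030 ranked 9 by Pearson correlation with TD2 over the 6 libraries. Solyc08g074630 ranked 807, Solyc12g010040 ranked 918 and Solyc08g074620 ranked 2899. These ranks describe 6 libraries that share 2 treatments. Among the 4 polyphenol oxidases tested in shoot, the Pearson values were 0.701 to 0.932, and 1 of the 6 pairs passed, Solyc08g074630 with Solyc08g074682 (exact permutation p adjusted over 36 pairs 0.0167 for Pearson and 0.075 for Spearman). Between a polyphenol oxidase and one of the 4 late wound enzymes the values were 0.147 to 0.765, and none of these 16 pairs passed (lowest adjusted exact permutation p = 0.154). With each group's mean subtracted, the Pearson values were 0.199 to 0.993 among the polyphenol oxidases. For the 16 pairs they were then -0.846 to 0.452. The closest relation of Solyc12g010040 was with Solyc08g074630, at 0.951, and at 0.977 with each group's mean subtracted. It fell to -0.04 without the 2 libraries farthest from the median of Solyc08g074630, so it rests on those libraries.

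**Figure D5:**
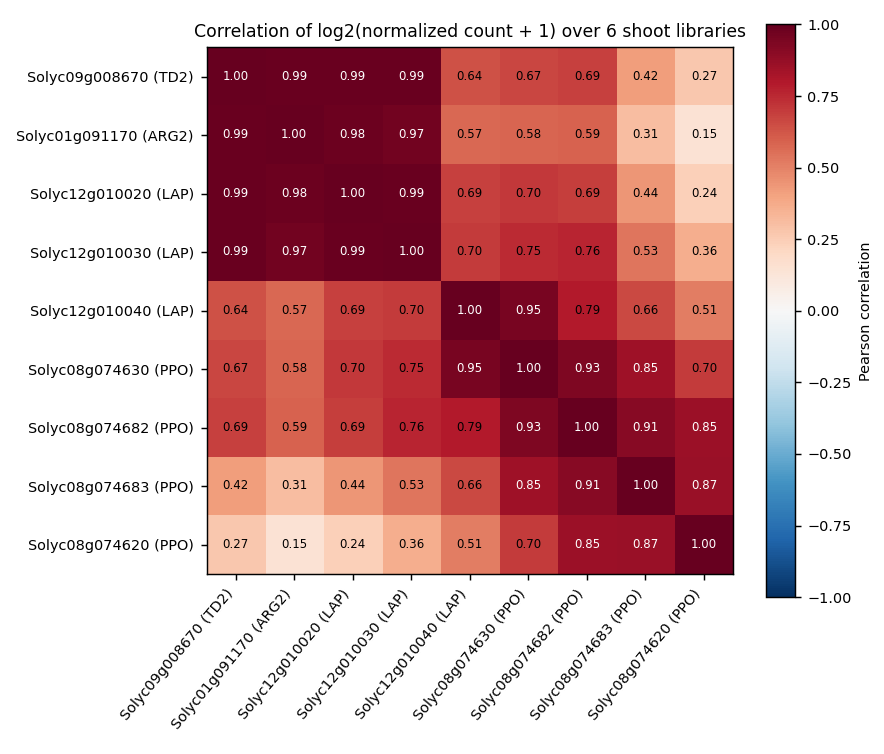
Cells give Pearson correlations of log2(normalized count + 1) over the 6 shoot libraries for 9 loci on both axes, on a colour scale from -1 to 1. TD2, ARG2, Solyc12g010020 and Solyc12g010030 form a block at 0.97 to 0.99, and Solyc08g074620 is the locus least like them, at 0.15 to 0.36.

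Over both tissues, the loci most like each enzyme group were sought among 8503 others with a mean of at least 50 in each tissue. The measure was the Pearson correlation over 12 libraries after each tissue's mean was subtracted. For summed aminopeptidase counts they were Solyc02g063090.3 at 0.941 and Solyc04g016000.3 at 0.919, and for TD2 Solyc02g067750.4 at 0.910 and again Solyc04g016000.3 at 0.882. For ARG2 they were Solyc02g069790.3 at 0.925 and Solyc02g083150.3 at 0.870, and for summed polyphenol oxidase counts Solyc06g073310.3 and Solyc12g042380.2, both at 0.872. No source used here names these loci.

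The same leaf spray was then followed into roots, which received no spray themselves. Again 0 of the tested members, 8 in number, were called by limma or edgeR, and Solyc08g074620 and Solyc12g010030 were below the minimum. Over all 14645 tested loci limma called 1.58%, made up of 0.478% higher with PA and 1.11% lower. At an unadjusted p below 0.05, limma had 1 higher and 3 lower, as had edgeR and DESeq2. Over all tested loci that level was passed by 12.7% with limma (6.8% higher and 5.85% lower), 12.1% with edgeR and 8.59% with DESeq2. DESeq2 called 2 lower after adjustment, TD2 and Solyc08g074680, and called 2.66% of all tested loci. The median log2 difference of the 8 was -0.30, against 0.03 over all tested loci.

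In root the TD2 estimate had the opposite sign to shoot. It measured 993, 1300 and 1678 normalized counts in mock root and 697, 982 and 900 in PA root, so every PA library was below every mock library, by a small margin between PA replicate 2 and mock replicate 1. Such a downward separation was seen at 7.26% of tested loci. The log2 difference was -0.60 (standard error 0.17, 95% interval -0.98 to -0.22, limma adjusted p = 0.121), and DESeq2 on whole reads gave -0.65 (adjusted p = 0.00986). The adjusted p of TD2 in root lay between 0.00986 and 0.628 in the alternatives. TD2 passed with limma without mock root replicate 1 (0.0348), where 1.79% of all tested loci were called.

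Of the 3 root polyphenol oxidases, none was called by limma in root, and their estimates had both signs. Solyc08g074682 was at 729, 821 and 938 in mock root and 1076, 1380 and 940 in PA root, with PA replicate 3 only just above the highest mock library. Its log2 difference was 0.44 (standard error 0.14, 95% interval 0.14 to 0.74, limma adjusted p = 0.161), and upward separation was seen at 10.2% of tested loci. Without PA root replicate 3 it passed (limma adjusted p = 0.0395, in a range up to 0.579), where 3.53% of all tested loci were called. Solyc08g074680 went the other way, from 1017, 971 and 1421 to 991, 733 and 674, with PA replicate 1 inside the mock range (log2 difference -0.51, standard error 0.16, limma adjusted p = 0.17). DESeq2 called it (adjusted p = 0.0458, in a range up to 0.79).

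Solyc08g074683 had 564, 491 and 602 in mock root and 415, 495 and 489 in PA root (log2 difference -0.24, standard error 0.11, limma adjusted p = 0.368). As a result the ratio of Solyc08g074682 to Solyc08g074680 was 0.717, 0.846 and 0.660 without PA and 1.09, 1.88 and 1.40 after PA, with no overlap. The ratio of Solyc08g074682 to Solyc08g074683 was 1.29 to 1.67 without PA and 1.92 to 2.79 after it, again with no overlap. The ratio of Solyc08g074680 to Solyc08g074683 did overlap, at 1.80, 1.98 and 2.36 without PA and 2.39, 1.48 and 1.38 after it. Both ratios without overlap have Solyc08g074682 as numerator, and the share of other locus pairs without overlap was not computed. These ratios were chosen after the levels had been seen and were not tested. Solyc08g074682 supplied 32.8 ± 2.5% of the summed polyphenol oxidase counts in mock root against 46.5 ± 5.1% with PA, while the sum itself overlapped between the groups.

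The other loci had intervals that spanned 0 in root. Solyc12g010040 was the steadiest, with 794 ± 30.3 normalized counts in mock root, 830 ± 21.8 after PA and a 95% interval of -0.11 to 0.24 on the log2 scale (limma adjusted p = 0.82). ARG2 varied widely at a low level, at 20.1, 27.9 and 68.8 in mock root and 20.5, 46.1 and 19.0 in PA root (log2 difference -0.36, 95% interval -1.30 to 0.58, limma adjusted p = 0.812). Solyc12g010020 was at 19.3 ± 4.85 and 14.2 ± 0.86, and Solyc08g074630 at 15.0 ± 4.80 and 20.8 ± 4.46 (limma adjusted p = 0.633 and 0.581). Among the 28 pairs of the 8 members in root, the lowest exact permutation p for Pearson was 0.0167, for TD2 with Solyc12g010020 (Pearson 0.909, Spearman 0.829). None of the 28 passed after adjustment (lowest 0.467), and that Pearson value was 0.242 without the 2 libraries farthest from the median of Solyc12g010020.

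Whether PA acted differently in the 2 tissues was tested as the root effect minus the shoot effect. None of the 7 loci tested in both tissues passed with limma, edgeR or DESeq2, although all 7 estimates were negative. Of all loci tested there, 55.3% had a positive estimate, and the median was 0.04. Over all 13010 loci tested limma called 0.377%, made up of 0.0922% higher in root and 0.284% lower. At an unadjusted p below 0.05, 4 of the 7 were lower in root with limma, 3 with edgeR and 4 with DESeq2. Over all tested loci that level was passed by 12.1% with limma (6.5% higher and 5.63% lower), 12.1% with edgeR and 9.98% with DESeq2. TD2 had the largest of the estimates, -1.60 on the log2 scale (standard error 0.46, 95% interval -2.58 to -0.63, limma adjusted p = 0.158). Without PA shoot replicate 3 its adjusted p was 0.0478, the lowest of a range up to 0.329, and limma called 0.231% of all tested loci there. For Solyc08g074682 and Solyc08g074683 the differences were -1.19 and -0.91 (standard errors 0.31 and 0.24, limma adjusted p = 0.123 for each). Solyc08g074682 reached the shoot minimum only through its PA libraries.

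Loci with neighbouring identifiers were examined in the same fits. Of 18 neighbours of the members on the 4 chromosomes, 3 had no read in any library, and limma called 0 of the 7 tested in shoot and 0 of the 7 tested in root. At the polyphenol oxidase cluster, Solyc08g074690.3 lay beside the root loci and was itself read in root only, at 215 ± 42.0 normalized counts in mock root, 214 ± 47.0 after PA, and with 0 reads in each shoot library, which allows up to 2.76 to 4.69 normalized counts in a library. It was named after its values were seen. Its root levels differed by less than the spread between replicates (log2 difference -0.02, limma adjusted p = 0.983).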

How the data were processed

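The authors deposited 1 table of normalized counts, a signal per locus and library, for 34688 loci and 12 libraries. STAR 2.6.1d, Trimmomatic 0.38, FastQC 0.11.8 and DESeq2 are named in the submitters' processing notes, and the labels' protocols name a 3′ kit (QuantSeq) with 2 µg of RNA. No source used here names the read counter, the genome build or the annotation. All deposited values were whole multiples, within 0.01, of 1 read per column, so whole reads were recovered. Such limits as 3 reads for a count of 0 cover counting error only.

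Tests used limma 3.58.1 (intensity trend, R 4.3.3) on log2(value + 1), two-sided, over all loci with a mean of at least 10 in the fit, with Benjamini-Hochberg adjustment. Fold changes are on that scale, which understates low loci. edgeR 4.0.16 and DESeq2 1.42.0 were run on whole reads. Only the limma fits were tested on simulated data. Members, groupings and lists were chosen with earlier results of these data known. All 10 members are named, with the 2 most similar loci per enzyme group. Lists by product name were not used, since 0 entries of the reference table match the identifiers. Groups and replicate numbers come from sample titles, and p-values measure the spread between these pools of plants, which may be technical. Replicates of a group differed by more than sampling noise (chi-square per degree of freedom 3.84 to 9.92). Same-numbered libraries correlated at -0.05 to 0.10 over all loci, which cannot decide whether they share plants. The numbers were not taken as pairs in the main fits, and a replicate block was fitted as an alternative.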

Additional observations from a re-analysis of the deposited data

How the results depend on the processing

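All 10 tissue differences kept their direction and their call in every alternative, and quantile scaling, which moved the median of all loci by 0.13 toward root, left them called (6028 loci higher in root and 4480 in shoot). The PA results are limited by 3 libraries a group and by the spread between them. In shoot, 1 member passed with no filter on low values (Solyc12g010030), 1 with all 12 libraries in 1 fit (Solyc08g074682) and 1 with sample quality weights (Solyc08g074630, limma adjusted p = 0.0431). Of all tested loci, 1.35%, 1.28% and 2.55% were called in these fits. In root DESeq2 gave 2 members and called 2.66% of all tested loci. Leaving out 1 library gave 0 to 4 members in shoot, 0 to 1 in root and 0 to 1 for the difference between tissues. In the same way the loci called ranged from 62 to 383, from 14 to 517 and from 15 to 160. As shares of tested loci these were 0.428 to 2.63%, 0.0956 to 3.53% and 0.115 to 1.23%. DESeq2 called 367 loci in shoot, 389 in root and 177 for the difference between tissues, sample quality weights 370, 402 and 102, and edgeR 75 for the last. ARG2 in root, -0.36 with all libraries, ranged from -0.751 to 0.142 with 1 library left out, turning without mock root replicate 3 and passing in neither direction; the cause was not tested.

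With the replicate block, 376 loci were called in shoot (2.59% of tested loci), 441 in root (3.01%) and 129 for the difference between tissues (0.992%). Among the members 1 passed in shoot (Solyc08g074630, limma adjusted p = 0.0311) and 1 in root (TD2, limma adjusted p = 0.0141). The numbers are shared by the labels only, and the correlation of same-numbered libraries was above 0.1 in 1 of 18 pairs.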
